A study of Mus musculus with 4 samples.

Results

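Foxp3-expressing cells of the mouse thymus were found in every library of a single-cell RNA-seq study of Tox4, but they were rare. They were selected on their own transcripts: among cells with at least 200 detected genes, at least 1000 UMIs (unique molecular identifiers, each standing for 1 captured RNA molecule) and at most 10% of UMIs from mitochondrial genes, a cell was kept when it held at least 1 UMI of Foxp3 and at least 2 UMIs summed over Il2ra, Ikzf2, Ctla4, Tnfrsf18 and Tnfrsf4. Cells with any UMI of C1qa, C1qb or C1qc, which mark macrophages, or of Cd79a, which marks B cells, were removed. This left 97 Foxp3-gated cells of 33597 cells past the quality filters, out of 57354 deposited barcodes. The cells were 27 from control 1, 29 from control 2, 20 from cKO 1 and 21 from cKO 2.

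The study asked what the HMG-box protein TOX4 does in T cell development. Whole thymocytes were captured in droplets with a 3′-end kit, 2 libraries from Tox4 F/F mice (control) and 2 from Tox4 F/F mice that also carried Lck+ (cKO). In the study, Lck+ is a Cre transgene under the proximal Lck promoter, which deletes floxed exons 4 to 6 of Tox4 from the DN3 stage, before CD4 and CD8 appear. Both groups thus carry the floxed alleles on a C57BL/6 background, the control mice lack the transgene, and the study used gender-matched littermates of 6 to 8 weeks. The study analysed 2 pairs of control and cKO mice, while the labels do not name the mouse behind each library. The p-values measure the spread between the libraries.

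Regulatory T cells (Tregs) restrain immune responses to self, and most of them arise in the thymus from CD4 cells that receive a strong T cell receptor signal. Such cells first raise CD25, the IL-2 receptor alpha chain encoded by Il2ra, and members of the TNF receptor family such as GITR (Tnfrsf18) and OX40 (Tnfrsf4), and then turn on the transcription factor Foxp3 under IL-2 and STAT5 signalling. Mature Tregs leave for the periphery, and some activated Tregs are known to travel back to the thymus.

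The libraries held 11790 to 17347 barcodes and 42716798 to 62007453 UMIs. Barcodes above the mitochondrial limit made up 48.3% and 46.1% of the first replicates of control and cKO and 20.6% and 23.1% of their second replicates, so this share moved with the replicate number and not with genotype. Any pair of libraries shared 36 to 70 barcodes, no member barcode was shared with a member of another library, and 2 members had a barcode that also occurred in another library. Tox4 itself was measured at 66.8 and 71.3 CPM (UMIs of a gene per 1000000 UMIs, summed over the cells of a gate in a library) in the Foxp3-gated cells of the controls and at 45.4 and 34.7 CPM in those of the cKO. These are 16, 13, 7 and 4 UMIs, and over all cells past the filters Tox4 stood at 63.9 and 69.1 CPM in controls and 50.5 and 58.6 CPM in cKO. The reads come from the 3′ end of the RNA and the deletion removes internal exons, so the Tox4 count does not check the deletion.

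The genes that chose the cells are described here without a test. Of the 97 cells, 45 held exactly 1 Foxp3 UMI, 20 held 2, and 32 held 3 or more, with a highest count of 8. Foxp3 (chrX:7573644-7595245, GRCm38, GENCODE M21) reached 250 and 400 CPM in the controls and 311 and 295 CPM in the cKO. Ikzf2, which encodes the transcription factor Helios, was seen in 90 cells, Tnfrsf18 in 77, Tnfrsf4 in 72, and Il2ra and the inhibitory receptor gene Ctla4 in 45 cells each. Tnfrsf4 (chr4:156013843-156016612) and Tnfrsf18 (chr4:156026164-156028895) lie close together on the same chromosome. All 5 genes were seen in 26 cells and at least 3 of them in 71.

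The sum over the 5 genes had a median of 18 UMIs and a highest value of 93. At the edge of the rule, 7 cells passed with exactly 2 UMIs of the 5 genes. Just outside it, 3 cells with Foxp3 had 1 UMI and 13 had none, and 14 cells that met both counts were removed for a C1q UMI and 1 for a Cd79a UMI. All members held a UMI of Trbc1 or Trbc2, the constant parts of the T cell receptor beta chain, and 89 held Trac of the alpha chain.

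A part of the 97 cells also carried transcripts of CD4+CD8+ double-positive (DP) thymocytes, the most common cells of the thymus. Cd4 was detected in 61 members and Cd8a or Cd8b1 in 63, with 44 cells at 2 or more CD8 UMIs and 12 cells at 10 or more. Rag1, a subunit of the recombinase that is shut off after positive selection, reached 129, 132, 168 and 182 CPM in the members of control 1, control 2, cKO 1 and cKO 2. This was 9.39%, 9.70%, 15.7% and 13.8% of its level in DP-gated cells, which hold Rag1, Cd4 and at least 2 CD8 UMIs. A total of 19 members met that DP gate themselves, whereas 33 members had no UMI of Rag1, Rag2, Dntt or Ptcra. Members with many and with few CD8 UMIs occurred in every library, as the plot of single cells shows, and 62 members had at most 2 CD8 UMIs and at most 2 UMIs of the 4 immature genes. Foxp3 UMIs were seen in 31 of 18904 DP-gated cells (0.164%, 95% Clopper-Pearson interval 0.111 to 0.233%, median 3026 UMIs). Since 19 of these 31 cells are the members just counted, this share is no independent background. Among cells that should lack the gene, Foxp3 UMIs were seen in 2 of 659 C1q-gated cells (0.303%, 0.0368 to 1.09%, median 2244 UMIs) and in 1 of 112 Cd79a-gated cells (0.893%, 0.0226 to 4.87%, median 5246.5 UMIs).

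**Figure D1:**
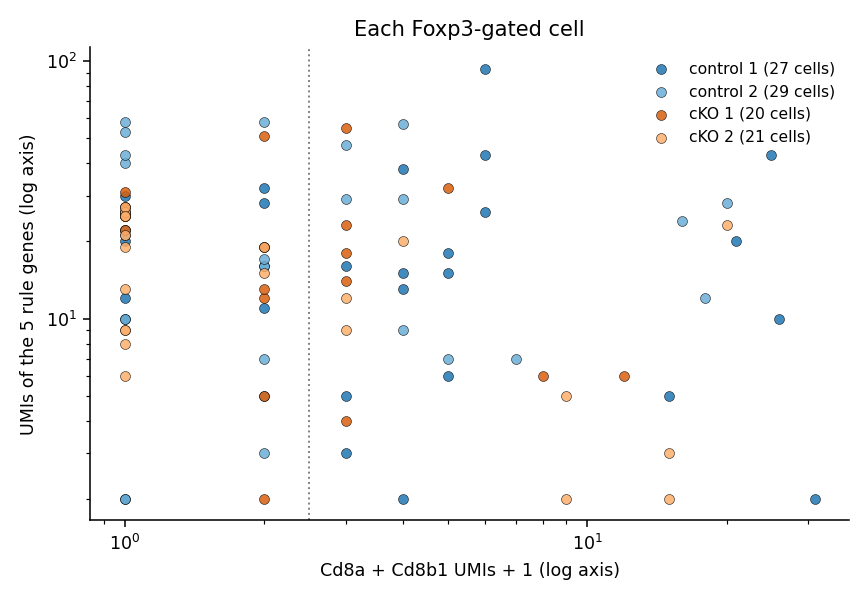
Each point is 1 of the 97 Foxp3-gated cells, placed by its Cd8a and Cd8b1 UMIs plus 1 (x axis, log scale) and by its UMIs of Il2ra, Ikzf2, Ctla4, Tnfrsf18 and Tnfrsf4 (y axis, log scale), and coloured by library. The dotted line separates cells with 0 or 1 CD8 UMI from the 44 cells with 2 or more, which occur in all 4 libraries.

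The part that free RNA in the droplets or droplets with 2 cells had in these transcripts was not tested. Members were deeper than other cells, with median totals of 6439, 6331, 5406.5 and 3963 UMIs in control 1, control 2, cKO 1 and cKO 2 against 3714, 3068, 3701.5 and 2687 over all cells past the filters. Of the members, 8 were among the top 5% of doublet scores in their libraries. A single cell of 62257 UMIs gave 25.97% of the member UMIs in control 1, and a single cell of 50772 UMIs gave 32.9% in cKO 1. Markers of other lineages were measured in the members. The 8 phagocyte markers summed to 60.8 to 104 CPM per library, with Csf1r and Adgre1 at 0, and the 9 dendritic markers to 192 to 305 CPM, with Itgax and Siglech at 0. The 7 B cell markers summed to 208 to 311 CPM, with Ms4a1, Ebf1 and Pax5 at 0. The 6 gamma-delta T cell markers summed to 16.4 to 52.1 CPM in 3 libraries and to 242 CPM in control 1, where 1 cell held all 34 UMIs of Tcrg-C1, and Sox13 and Trdv4 were at 0. The lists for innate lymphocytes, epithelial cells, erythroid cells and neutrophils each summed to at most 86.8 CPM.

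The first comparison asked whether the share of Foxp3-gated cells differs between control and cKO thymus. The share was 0.465% in control 1 (27 of 5805 cells, 95% Clopper-Pearson interval 0.307 to 0.676%) and 0.330% in control 2 (29 of 8781, 0.221 to 0.474%). It was 0.289% in cKO 1 (20 of 6912, 0.177 to 0.447%) and 0.174% in cKO 2 (21 of 12099, 0.107 to 0.265%). Both controls lay above both cKO libraries, with means of 0.398% and 0.231% and a difference of -0.166 percentage points. With 2 libraries per group the exact two-sided permutation p was 0.333, which is the smallest that this design allows. The cKO library was the lower in each pair of the same replicate number, which also shared the high or low share of barcodes above the mitochondrial limit. The intervals cover counting error only, and fewer of these cells and less RNA of the rule genes per cell cannot be told apart by a rule on UMIs.

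**Figure D2:**
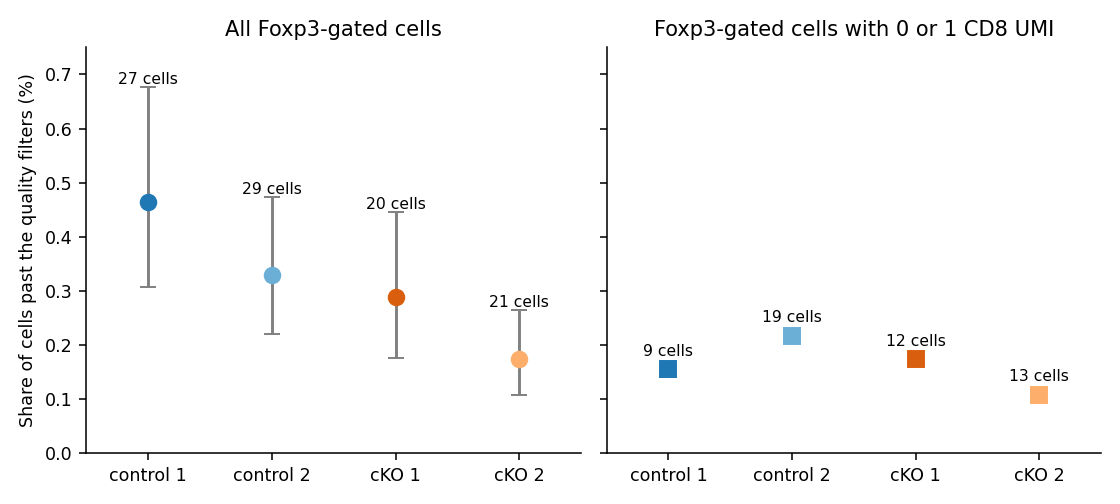
The share of Foxp3-gated cells among cells past the quality filters (y axis, percent) is shown for each library, on the left for all 97 cells with 95% Clopper-Pearson intervals and on the right for the 53 cells with 0 or 1 CD8 UMI. On the left both controls lie above both cKO libraries, and on the right the groups overlap.

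The order of the libraries depended on members with CD8 transcripts. Without members that held 2 or more CD8 UMIs, the shares were 0.155% and 0.216% in control and 0.174% and 0.107% in cKO, and the groups overlapped (difference -0.0452 percentage points, exact permutation p = 0.667). With at most 2 CD8 UMIs and at most 2 UMIs of the immature genes the difference was -0.0407 percentage points (p = 0.667, exact permutation test). After each cell was thinned to 1000 UMIs the difference was -0.0359 percentage points (p = 0.667, exact permutation test). Among cells with at least 3000 UMIs it was -0.207 percentage points, with groups that did not overlap. The cKO mean was lower in each of these settings. In the first 3 of them cKO 1 lay above control 1, at 0.174% against 0.155%, 0.231% against 0.189% and 0.0868% against 0.0861%, so the order within that pair was lost.

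The second comparison asked how the Foxp3-gated cells differ from conventional CD4 cells of the same thymi. Conventional CD4-gated cells held Cd4, a CD3 gene and Ccr7, with no UMI of Foxp3, the 5 rule genes, CD8 or the immature genes. They numbered 8, 40, 14 and 54 cells in control 1, control 2, cKO 1 and cKO 2. Foxp3-gated cells had higher RNA levels of the genes for the IL-2 receptor beta chain, the Ikaros-family factor Eos, neuropilin-1 and 4-1BB. They had lower RNA levels of the genes for CD40 ligand and the IL-7 receptor and of Itm2a. UMIs were summed per library and gate and tested with edgeR's quasi-likelihood test with library as a block, over 2562 genes, with Benjamini-Hochberg adjustment. At an adjusted p under 0.05, 168 genes were higher in Foxp3-gated cells (6.56% of genes tested) and 98 were lower (3.83%). DESeq2 called 88 genes in all, and a mitochondrial limit of 5%, which left control 1 without conventional cells and out of the fit, gave 15 calls. The genes that set either gate were left out of the test.

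The conventional gate admits no CD8 or immature UMI while the Foxp3 gate does. A second version of the gates therefore allowed at most 2 CD8 UMIs and at most 2 UMIs of the immature genes in all of them, an alternative chosen after seeing the data and called here the DP limit. It changed the compared gates as well as the members. It left 11, 21, 16 and 14 Foxp3-gated cells in control 1, control 2, cKO 1 and cKO 2, and it widened the conventional gate to 66, 121, 98 and 160 cells, which now may hold up to 2 CD8 and 2 immature UMIs. A value with the DP limit is therefore not a change in the members alone. Of 3662 genes tested with it 259 were called higher (7.07%) and 131 lower (3.58%). Of the 168 higher genes 108 were called higher with the DP limit, and 14 had estimates of the opposite sign, with Stmn1, which encodes a microtubule regulator, called lower. Of the 98 lower genes 65 were called lower with it, and none of these 98 turned sign. Counts with the DP limit stand beside the gene groups below.

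Il2rb (chr15:78479256-78495271) encodes the IL-2 receptor beta chain, which passes the IL-2 signal to STAT5. It was measured at 250, 318, 246 and 191 CPM in the Foxp3-gated cells of control 1, control 2, cKO 1 and cKO 2, and at 25.5, 9.84, 0 and 13.8 CPM in the conventional cells of the same libraries. Every Foxp3-gated value lay above every conventional value, with a log2 fold change of 4.48 ± 0.40 (SE, n = 4 libraries, edgeR adjusted p = 1.26e-14) and 5.18 with the DP limit.

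Ikzf4 (chr10:128630843-128645991), which encodes Eos, a partner of Foxp3 in gene repression, stood at 154, 258, 207 and 200 CPM against 76.6, 4.92, 12.8 and 9.18 CPM. The groups did not overlap (log2 fold change 3.997 ± 0.43, edgeR adjusted p = 7.07e-12). Nrp1 (chr8:128358604-128503363), which encodes neuropilin-1, a surface protein of thymus-derived Tregs, stood at 96.0, 93.2, 194 and 69.5 CPM against 51.1, 4.92, 0 and 0 CPM. Its 3 UMIs in the conventional gate give a pooled ratio of 20.2 with a counting interval of 6.67 to 100.3. Tnfrsf9 (chr4:150914562-150946102), which encodes the costimulatory receptor 4-1BB, stood at 129, 137, 156 and 208 CPM and was at 0 in all 4 conventional sums. It was at least 27.0-fold higher, taken against 3 UMIs over the conventional gate.

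**Figure D3:**
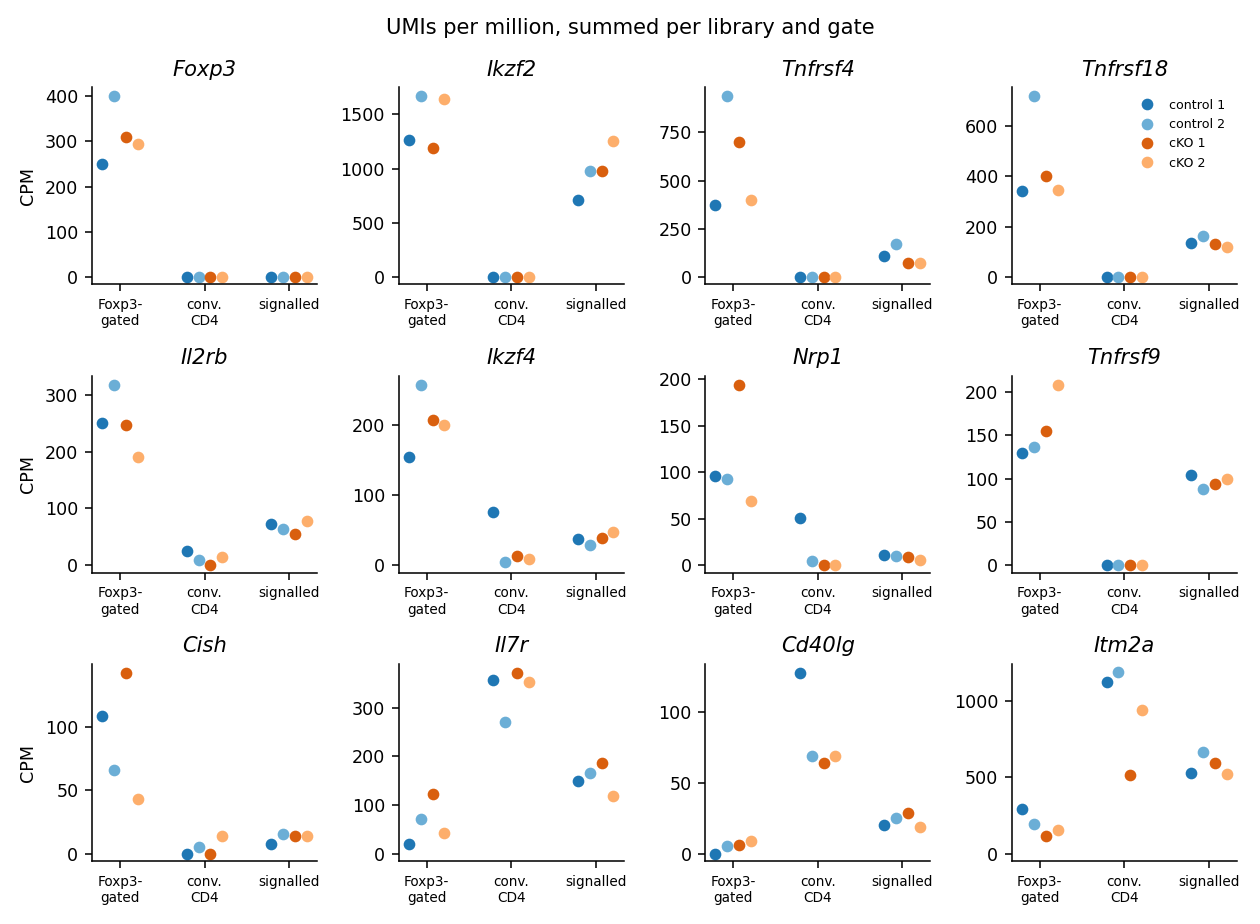
Each point is the CPM of a gene (y axis, linear) summed over the cells of a gate in 1 library, for Foxp3-gated, conventional CD4-gated and Foxp3-zero signalled cells. Foxp3, Ikzf2, Tnfrsf4 and Tnfrsf18 are at 0 in conventional cells because the gates required it, as is Foxp3 in signalled cells, while for Il2rb, Ikzf4 and Nrp1 the 4 Foxp3-gated points lie above all points of the other gates.

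The 15 genes named by size among those higher in all 4 libraries were Tnfrsf9, Gsta4, Il2rb, Arhgap20, Ikzf4, Nrp1, AW112010, Tbc1d4, Pclaf, Pou2f2, Gm8369, Hist1h2ap, Myb, Bmyc and Pim1, with log2 fold changes from 2.63 to 7.73, where the highest, of Tnfrsf9, is a fitted value and no bound. Gsta4, a glutathione transferase gene, had 69 UMIs in Foxp3-gated cells and 2 in conventional cells (pooled ratio 26.9, counting interval 7.16 to 226). Pim1, a STAT5-induced kinase gene, stood at 229, 307, 227 and 217 CPM against 51.1, 29.5, 77.02 and 36.7 CPM (fitted log2 fold change 2.63 ± 0.31, edgeR adjusted p = 3.54e-10). AW112010 stood at 275, 318, 700 and 365 CPM against 76.6, 34.4, 12.8 and 41.3 CPM. With the DP limit 13 of the 15 were called, with log2 fold changes from 1.68 for Myb to 5.85.

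The other 2 were cell cycle genes. Pclaf, which encodes a partner of PCNA, had a log2 fold change of -0.47 with the DP limit (edgeR adjusted p = 0.665), and the histone gene Hist1h2ap one of 0.08 (edgeR adjusted p = 0.945). Both were seen in few members, 17 for Pclaf and 38 for Hist1h2ap, and reads of histone genes can be shared between near-identical copies. Of the 22 genes in the proliferation list that the study used, 7 were tested and 5 were called higher, namely Dek, H2afz, Hmgb2, Mki67 and Top2a. With the DP limit only H2afz of the 7 tested was called.

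**Figure D4:**
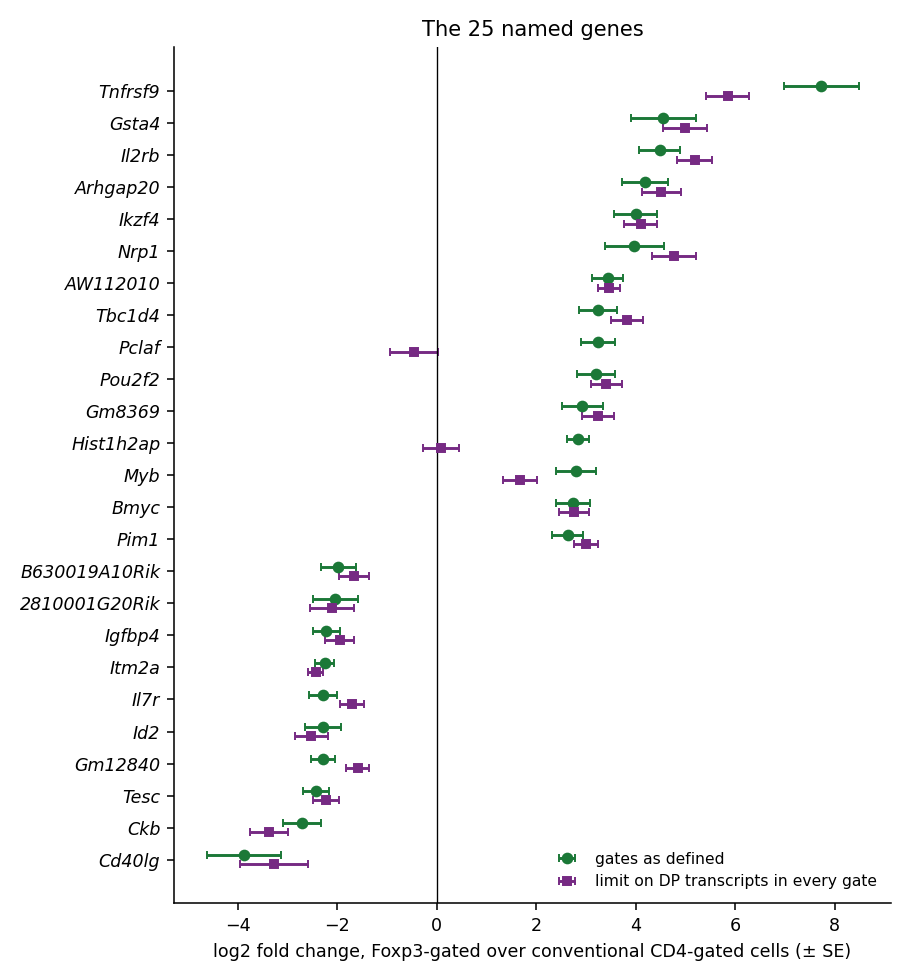
Fitted log2 fold changes of Foxp3-gated over conventional CD4-gated cells (x axis, bars are SE over 4 libraries) are shown for the 15 higher and 10 lower named genes, for the gates as defined (circles) and with the DP limit (squares). Pclaf moves to -0.47 and Hist1h2ap to 0.08 with the limit, Myb moves to 1.68, and the 10 lower genes remain below 0.

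The 10 named lower genes were Cd40lg, Ckb, Tesc, Gm12840, Id2, Il7r, Itm2a, Igfbp4, 2810001G20Rik and B630019A10Rik, and all of them were also called lower with the DP limit. Cd40lg encodes CD40 ligand, the signal by which helper T cells act on B cells. It gave 0, 5.48, 6.48 and 8.68 CPM in Foxp3-gated cells, which are 3 UMIs, against 128, 68.9, 64.2 and 68.8 CPM in conventional cells (pooled ratio of conventional over Foxp3-gated cells 16.7, counting interval 5.31 to 84.5). Il7r encodes the IL-7 receptor alpha chain, which is low on Tregs. It gave 20.9, 71.3, 123 and 43.4 CPM against 358, 270, 372 and 353 CPM, with no overlap (log2 fold change -2.28 ± 0.28, edgeR adjusted p = 1.11e-09). Itm2a, a gene induced at positive selection, gave 292, 197, 117 and 156 CPM against 1124, 1190, 513 and 945 CPM (fitted log2 fold change -2.25 ± 0.19, edgeR adjusted p = 2.21e-15).

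By gene group, the Treg signature list, which leaves out the rule genes, had 7 of its 20 genes tested. Of these 6 were called higher and none lower, namely Ikzf4, Il2rb, Nrp1, Tnfrsf9, Capg and Swap70. The median log2 fold change was 3.97, also with Tnfrsf9 at its bound, beside 0.0055 over all genes tested. Genes enter the test when they have enough UMIs in either gate, so a gene near 0 in conventional cells could enter only by being high in Foxp3-gated cells, and the count is a description. The most abundant member in Foxp3-gated cells, Izumo1r (folate receptor 4), stood at 200, 384, 337 and 148 CPM against 128, 236, 244 and 284 CPM, with groups that overlapped (log2 fold change 0.28, edgeR adjusted p = 0.538) and a log2 fold change of 1.10 with the DP limit (edgeR adjusted p = 0.000162). With the limit 9 of 10 tested genes of the list were called higher.

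NF-κB genes act downstream of the TNF receptors that mark Treg precursors. Of 15 genes 5 were tested, 4 were called higher and none lower, with a median log2 fold change of 1.53. As in the Treg signature list, a gene near 0 in conventional cells could enter only by being high in Foxp3-gated cells. The count and the median are thus descriptions, as are the higher calls against conventional cells in the groups below. Rel, which encodes c-Rel, a driver of Foxp3 induction, stood at 83.4, 137, 110 and 122 CPM against 0, 39.3, 0 and 36.7 CPM (fitted log2 fold change 2.18, edgeR adjusted p = 2.99e-05). Nfkbia, the inhibitor IκBα and a target of the pathway, stood at 334, 411, 531 and 573 CPM against 179, 138, 128 and 243 CPM (fitted log2 fold change 1.53, edgeR adjusted p = 1.16e-07). For both genes all Foxp3-gated values lay above all conventional values. Nfkb1 and Traf1 were the other called genes, and with the DP limit 7 of 7 tested genes were called higher.

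In the IL-2 and STAT5 group of 14 genes, 9 were tested, 3 were called higher (Il2rb, Stat5a and Pim1) and 1 lower (Il7r). Under the DP limit 4 of 10 were called higher, Cish being the added gene, and Il7r lower. The median log2 fold change was 0.26. Bcl2 and Jak1, among its most abundant genes here, were not called, and Bcl2 gave 367, 460, 330 and 269 CPM against 460, 536, 822 and 404 CPM. Il2rg, the common gamma chain that completes the receptor, gave 221, 230, 117 and 104 CPM against 332, 231, 270 and 266 CPM (fitted log2 fold change -0.60, edgeR adjusted p = 0.108).

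Cish, the feedback inhibitor that STAT5 induces, did not pass the filter on low counts against conventional cells, except with the DP limit (log2 fold change 4.08, edgeR adjusted p = 8.92e-08). It was also compared with signalled cells, which are described below. It was measured at 108, 65.8, 143 and 43.4 CPM in Foxp3-gated cells and 7.40, 15.8, 14.1 and 14.2 CPM in signalled cells, with no overlap (log2 fold change 2.83 ± 0.35, edgeR adjusted p = 1.39e-05). RefSeq promoter windows (GRCm38.p6, 250 bases before to 50 after each gene start) matched 12 of the 14 genes. The motif TTCNNNGAA, the letters bound by STAT dimers and the same on both strands, occurred in windows of 3 of these 12 genes and of 9.55% of all genes with a window. The 3 stretches are shown because Cish and Il7r moved in opposite directions while their windows both hold the motif, and Socs3 completes the set. Capitals mark the motif, and each line reads 5′ to 3′ along the gene.
Cish, chr9:107296654-107296683, plus strand: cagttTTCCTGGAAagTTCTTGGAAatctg
Il7r, chr15:9529999-9530028, minus strand: gttcaggagcTTCAGGGAAtaccaagatgc
Socs3, chr11:117969501-117969530, minus strand: gaaaccagccTTCTTAGAAgggaggggggg

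The Cish stretch holds 2 copies, the first of which begins at the annotated gene start. Windows with 2 or more copies were found for 0.54% of genes. A match of letters is a description and no sign of binding in these cells.

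The lineage and T cell receptor groups gave mostly lower calls. In the CD4 lineage list 8 of 9 genes were tested, with 1 called higher (Myb) and 3 lower (Cd40lg, Tcf7 and Lef1), and the same genes were called with the DP limit. Lef1, a transcription factor of naive T cells, gave 317, 323, 233 and 321 CPM in Foxp3-gated cells against 869, 802, 783 and 821 CPM (fitted log2 fold change -1.37 ± 0.18, edgeR adjusted p = 6.62e-09). Bcl11b, the most abundant gene of this list, was not called.

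Among 14 partners of Foxp3 at the chromatin, 11 were tested, 3 were called lower (Satb1, Foxp1 and Ikzf1) and none higher. Satb1, a chromatin organiser needed to prepare Treg enhancers, gave 642, 713, 402 and 764 CPM against 1635, 2036, 1489 and 2234 CPM (fitted log2 fold change -1.49 ± 0.13, edgeR adjusted p = 6.92e-15) and stayed lower with the DP limit (-1.94). With the limit 4 of 12 were called lower (Satb1, Ikzf1, Bach2 and Ets1), and Foxp1 was no longer called (edgeR adjusted p = 0.188). Of 14 T cell receptor and proximal signalling genes 11 were tested, and none was called higher, while 3 were called lower, Cd247 and Trac among them, and 7 of 11 were called lower with the DP limit. Trac gave 476, 745, 518 and 677 CPM against 1507, 1057, 1053 and 771 CPM, with no overlap.

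The 16 genes induced by T cell receptor signals gave no higher call among 7 tested. Itm2a alone was called lower, and Cd5, whose level follows signal strength, gave 305, 329, 317 and 339 CPM against 307, 507, 282 and 376 CPM (fitted log2 fold change -0.15, edgeR adjusted p = 0.742). Dusp5, which encodes a phosphatase of ERK, was called higher with the DP limit and Itm2a lower among 10 tested, and the median log2 fold change was 0.15 in place of -0.15. In the costimulation and checkpoint list 8 of 15 genes were tested, with Cd200, Tnfrsf9 and Cd82 called higher and Cd28 lower. The DP limit gave higher calls for 6 of 9, with Icos, Tnfrsf1b and Cd81 added and Cd28 again lower, and the median log2 fold change was 0.98 in place of 0.45. Cd28, the main costimulatory receptor, gave 271, 214, 181 and 304 CPM against 613, 369, 372 and 367 CPM, with no overlap (log2 fold change -0.71, edgeR adjusted p = 0.0157).

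Genes of maturation and thymic egress were split. Of 14 genes 13 were tested, with Klf3, Itga4 and H2-Q7 among those called higher and Il7r, Igfbp4 and Cd52 lower. Klf2, the factor that turns on egress genes, gave 567, 1041, 473 and 643 CPM against 536, 615, 809 and 638 CPM and was not called (edgeR adjusted p = 0.675). Its target S1pr1, the egress receptor, was likewise not called (log2 fold change 0.08). Both passed the threshold with the DP limit, at log2 fold changes of 0.75 and 0.74, where 7 of 13 genes were called higher in place of 4, and 3 lower as before.

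Genes of effector and recirculating Tregs were sparse. Of 22 genes 3 were tested and 2 were called higher, S100a11 and Lgals1, and with the DP limit 3 of 4, with Rora added. Ccr6, the chemokine receptor that marks recirculating Tregs, was found in 17 of 97 members, with 16.7, 32.9, 97.2 and 43.4 CPM, and was at 0 in conventional cells. It was at least 7.78-fold higher against 3 UMIs over that gate. The conventional gate required a Ccr7 UMI while the Foxp3 gate did not, so this fold compares gates that differ by rule in Ccr7. Of the members 57 held Ccr7, the receptor of newly matured thymocytes, 9 held both Ccr7 and Ccr6, and 32 held neither. A cell without a UMI of a gene may still express it. Ccr8, Ccr4 and Il10 had no UMI in any member, which allows up to 4.34 CPM each.

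Survival genes (12 listed, 5 tested) gave no call, and Mcl1 and Bcl2 were the most abundant of them. Under the DP limit 3 of 7 were called higher, Mcl1 (log2 fold change 0.57, edgeR adjusted p = 0.0207), Bcl2a1b and Dusp2, and the median log2 fold change was 0.79 in place of 0.22. Among 10 regulators of the Foxp3 enhancers 6 were tested and Ezh2, a histone methyltransferase gene, was called higher (log2 fold change 0.92, edgeR adjusted p = 0.0341), but not with the DP limit (0.25, edgeR adjusted p = 0.696). No gene of the TOX and PP1 phosphatase group, which holds Tox4 and its complex partners, was called among 5 tested, or among 7 with the DP limit. Tox4 gave 66.8, 71.3, 45.4 and 34.7 CPM in Foxp3-gated cells against 25.5, 63.9, 64.2 and 22.9 CPM (fitted log2 fold change 0.30, edgeR adjusted p = 0.762). The B cell gene Ighm was called higher, at 200 to 247 CPM against 78.0 to 128 CPM, beside Ms4a1, Ebf1 and Pax5 at 0. Its source was not tested.

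The third comparison asked which genes set Foxp3-gated cells apart from Foxp3-zero cells with UMIs of the same 5 rule genes, Ikzf2 included. The signalled gate held at least 2 UMIs of the 5 rule genes, no Foxp3 and no immature gene, and it numbered 137, 467, 215 and 505 cells in control 1, control 2, cKO 1 and cKO 2. Il2rb, Ikzf4, Nrp1 and Pim1 were again higher in Foxp3-gated cells, and 5 of 13 tested T cell receptor response genes were lower. Of 6468 genes tested in the same way 202 were higher (3.12%) and 99 lower (1.53%). This comparison uses the same Foxp3-gated sums as the second, so the results are not independent of each other. Leaving out control 1 gave 176 calls in all and leaving out cKO 1 gave 185, against 301, while DESeq2 gave 181 and a mitochondrial limit of 5% gave 24. The DP limit gave 282 higher (3.88%) and 187 lower calls (2.57%) of 7275 genes tested, with 233, 458, 290 and 579 cells in the signalled gate.

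Nrp1 gave 10.6, 10.0, 9.15 and 5.70 CPM in signalled cells against 69.5 to 194 CPM in Foxp3-gated cells (log2 fold change 3.69 ± 0.32, edgeR adjusted p = 2.24e-07). Ikzf4 gave 28.9 to 47.0 CPM in signalled cells (log2 fold change 2.56 ± 0.22, edgeR adjusted p = 2.24e-07). Il2rb gave 54.9 to 77.9 CPM there (log2 fold change 2.01 ± 0.19, edgeR adjusted p = 4.81e-07). None of these 3 genes overlapped between the gates. Hopx, a gene that supports Treg function, was named after its values were seen and gave 87.6, 197, 162 and 43.4 CPM against 6.65 to 11.9 CPM (fitted log2 fold change 3.70, edgeR adjusted p = 2.24e-07).

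Of the 20 Treg signature genes 13 were tested against signalled cells, 10 were called higher and none lower, with a median log2 fold change of 1.76 beside -0.0096 over all genes tested. The DP limit gave higher calls for 14 of 17. Gpr83, a receptor gene of Tregs, gave 113, 121, 90.7 and 17.4 CPM in Foxp3-gated cells and 50.8, 13.9, 16.6 and 10.9 CPM in signalled cells (log2 fold change 2.09, edgeR adjusted p = 0.000599), and cKO 2 lay within the signalled range. Tnfrsf9 was called (log2 fold change 0.77, edgeR adjusted p = 0.0214), but the call was lost in 7 of its alternatives, with adjusted p from 0.0537 to 0.897 there. In the IL-2 and STAT5 group Il2rb, Stat5a, Cish and Pim1 were called higher and Il7r lower among 11 tested, and with the DP limit Socs2 and Bcl2 were also called higher. At the mitochondrial limit of 5% the calls of Il2rb (log2 fold change 1.56, edgeR adjusted p = 0.0728) and Pim1 (log2 fold change 0.71, edgeR adjusted p = 0.542) were lost.

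T cell receptor response genes gave 5 lower calls and none higher among 13 tested. Nr4a1, which encodes Nur77 and reports recent receptor signalling, gave 33.4, 60.3, 58.3 and 130 CPM in Foxp3-gated cells and 112, 169, 87.3 and 158 CPM in signalled cells (log2 fold change -0.92, edgeR adjusted p = 0.0366), and the values overlapped. Cd5 gave 305 to 339 CPM against 442 to 561 CPM, with no overlap (log2 fold change -0.58, edgeR adjusted p = 0.0139). Itm2a, Tox and Id3 were the other lower genes, and with the DP limit 4 of 15 tested were called lower, without Id3. Of 11 tested genes of the survival and death list, 7 had estimates above 0 and none was called higher, with a median log2 fold change of 0.11. Bcl2l11, which encodes the pro-death protein BIM, and the stress-induced gene Gadd45b were called lower. Gadd45b gave 0 to 12.5 CPM against 34.1 to 73.6 CPM.

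NF-κB genes gave 4 higher calls of 15 tested (Nfkbia, Traf1, Birc3 and Bcl3), with a median log2 fold change of 0.15, while Rel and Nfkb1 were not called, and the same 4 were called with the DP limit. Among 13 tested egress genes S1pr1, Klf2, Klf3 and H2-Q7 were among those called higher, and Il7r and Igfbp4 were called lower. The higher calls numbered 5, and 8 with the DP limit. S1pr1 gave 213, 252, 97.2 and 226 CPM in Foxp3-gated cells and 69.8, 101, 107 and 76.9 CPM in signalled cells (log2 fold change 1.26, edgeR adjusted p = 0.00108), with cKO 1 inside the signalled range. Ccr4, a chemokine receptor of recently selected CD4 cells, had 222 UMIs in signalled cells and none in members, which is at least 7.47-fold lower.

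The signalled gate held other cells too. The 9 dendritic markers summed to 442 to 2444 CPM there against 192 to 305 CPM in Foxp3-gated cells, and 5 of 5 tested were called lower in the latter. The innate genes Klrd1 and Id2 and the phagocyte gene Fcer1g were also called lower. In the signalled gate with the DP limit 4 of 5 dendritic genes, the same 2 innate genes, 3 of 4 tested phagocyte genes (Lyz2, Fcer1g and Tyrobp) and 3 of 3 gamma-delta genes (Trdc, Tcrg-C1 and Tcrg-C2) were, with medians of -5.35 for the phagocyte and -4.30 for the gamma-delta genes on the log2 scale. Cd8a gave 326 to 408 CPM in signalled cells against 104 to 317 CPM. The part of these cells in the other differences was not tested. Under the DP limit 156 of the 202 higher and 74 of the 99 lower genes were called in the same direction. Of the 202 higher genes 12 had estimates of the opposite sign with it, and Top2a was called lower. Of the 99 lower genes 98 were tested with it, and none of these turned sign.

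The fourth comparison asked whether gene expression in the Foxp3-gated cells differs between cKO and control. None of 2705 genes passed the threshold in edgeR (0%), with 78 genes at an unadjusted p under 0.05, and DESeq2 gave 0 genes, with 13 at an unadjusted p under 0.05. Here 2 libraries stand in each group, with 56 control and 41 cKO cells in all. Leaving out control 1, control 2 or cKO 2 gave 8, 3 and 6 calls. The DP limit gave 1 call of 1142 genes (0.0876%), Penk, which is described below. The absence of calls in the whole set does not show that the cells were alike.

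Among rule genes, Il2ra gave 184 and 384 CPM in control against 279 and 95.5 CPM in cKO, and Tnfrsf18 gave 342 and 718 against 402 and 347 CPM. Ctla4 gave 117 and 197 CPM against 130 and 104 CPM. The groups overlapped for each of the 3 genes. Among the genes that separated the gates, Il2rb gave a cKO over control log2 fold change of -0.39, Ikzf4 of -0.03, Nrp1 of 0.50 and Tnfrsf9 of 0.41. Tested Treg signature genes (10 of 20) had a median of -0.09 beside -0.01 over all genes tested, and of 0.05 with the DP limit (7 tested), so the sign turned, and the IL-2 and STAT5 group (10 tested) had a median of -0.34.

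Of single genes, Il2rg lay lower in both cKO libraries (117 and 104 CPM against 221 and 230 CPM), with a log2 fold change of -1.04, an unadjusted edgeR p of 0.0106 and an adjusted p of 0.998. Penk, which encodes the opioid precursor proenkephalin, had the lowest unadjusted p and was named after its values were seen. It gave 0 and 38.4 CPM in control and 194 and 113 CPM in cKO (log2 fold change 3.13 ± 0.75, edgeR adjusted p = 0.998). These are 0, 7, 30 and 13 UMIs in 0, 1, 3 and 3 cells. It passed the threshold in 6 of 12 alternatives. In 2 of these, without control 2 or without cKO 2, 1 group is a single library assumed to vary like the other group, and the other 4 gave adjusted p from 0.00109 to 0.0236. The value thus rests on 7 cells and on the setting.

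A test of the interaction asked whether the genotype difference is another one in Foxp3-gated than in conventional CD4-gated cells. It called none of 3407 genes (0%) in edgeR, with 93 genes at an unadjusted p under 0.05, and none in DESeq2, where 5 had an unadjusted p under 0.05. The DP limit gave 1 call of 4686 (0.0213%), Hist1h2ap.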

How the data were processed

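Gene by cell UMI counts were deposited by the authors as a matrix per library whose barcodes held at least 500 UMIs, made per the file headers with Cell Ranger 6.1.1 and, per the submitters' processing notes, on mm10. The libraries were made with 10X Genomics 3′ v3 reagents. Counts were used as deposited. The members and all gene lists were chosen with earlier results of these data known. Gates were applied to raw UMIs, UMIs were summed per library and gate, and sums were tested with edgeR 4.0.16 (TMM, filterByExpr, quasi-likelihood) with DESeq2 1.42.0 as an alternative, in Python 3.11.15 and R 4.3.3. Gate contrasts carried library as a block, and genotype was tested over 4 sums. The scripts were tested on simulated data. Named genes were the rule genes, the most abundant and role-bearing members of each list, Tox4, and the 15 higher and 10 lower genes with the largest fold change against conventional cells among called genes of the same direction in all 4 libraries with at least 50 CPM in the higher gate. Promoters came from RefSeq tables and gene positions from GENCODE M21. Doublets were scored with Scrublet, whose own threshold called 2 cells of 33597 and so did not work, and the top 5% of scores was left out as an alternative. Member sums held 115161 to 239698 UMIs per library, which limits the precision, and intervals cover counting error only. Alternatives changed the rule's sum, the mitochondrial limit, UMI range, CD8 content, depth, cell number, low-count filter and tool, and left out each library. A few results are not reported here.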

Additional observations from a re-analysis of the deposited data

Results flagged for a closer look

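Of 23757 barcodes outside the quality filters, 10 met the gene rule for Foxp3-gated cells. They were 1 in control 1, 1 in control 2, 3 in cKO 1 and 5 in cKO 2. They entered no comparison, and they stand here because they carry the signal in data that was left out, above the level of 3 counts that a count of 0 allows.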

How the results depend on the processing

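The mean share of Foxp3-gated cells was lower in cKO under all 13 alternatives, from -0.234 to -0.0359 percentage points, or -114 members per 100 conventional CD4-gated cells, and no arrangement of 4 libraries could pass a threshold. Per 100 conventional cells the values were 337.5 and 72.5 in control and 142.9 and 38.9 in cKO, with groups that overlapped (exact permutation p = 0.667). The sign there rests on control 1, with 8 conventional cells, since control 2 lay below the cKO mean of 90.9. Single libraries did not keep the order of control above cKO. Without CD8-holding members, with the DP limit and after thinning cKO 1 lay above control 1, and per conventional CD4-gated cell cKO 1 lay above control 2. Against conventional cells the 266 calls became 88 with DESeq2, 15 with a mitochondrial limit of 5%, which left control 1 without conventional cells and out of the fit, and 402 without the Ccr7 requirement and with at least 2000 UMIs per cell in both gates, changed together, and 390 with the DP limit. They were 199 to 239 when 1 library was left out. Against signalled cells the 301 calls became 181 with DESeq2, 24 with the 5% limit and 469 with the DP limit, and 176 to 226 when 1 library was left out, with 176 without control 1 and 185 without cKO 1. The 5% limit tested fewer genes and cells, and the causes of the other changes were not tested. In cKO against control the count of 0 became 1 without a filter on low counts, without extreme UMI totals, without the highest doublet scores and with the DP limit, the gene being Penk each time, and 0 to 8 when 1 library was left out, with 8 without control 1, 3 without control 2 and 6 without cKO 2. The interaction gave 1 call with the DP limit (Hist1h2ap) and 0 to 1 when 1 library was left out (Nrgn, without cKO 2). Pclaf turned sign with the DP limit, to -0.47 against conventional and -0.82 against signalled cells, as did Hist1h2ap against signalled cells, to -0.23. Over the 25 named genes 540 alternative values kept direction and side of the threshold, 44 lost the call, 6 gained it and 3 turned sign.

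With a replicate block in cKO against control 0 genes were called, as without it. Deviations of same-numbered libraries from their group means correlated at 0.122 across genes, and the study describes 2 pairs of control and cKO mice, while the labels do not state that a number marks a pair.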

Other observations

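Groups and single genes below were chosen after their values were seen and are given as counts of calls, medians and levels, which are descriptions. Ribosomal protein genes made up 29.1%, 31.0%, 30.7% and 29.8% of UMIs in the Foxp3-gated cells of control 1, control 2, cKO 1 and cKO 2, against 24.7 to 26.9% in signalled cells and 18.4 to 21.8% in DP-gated cells. In conventional cells they made up 27.8 to 29.1%. Of 80 tested, 34 were called higher against signalled cells and none lower, with a median log2 fold change of 0.30, and 24 were called higher against conventional cells and none lower, with a median of 0.17. With the DP limit 55 and 42 of 80 were called higher, with medians of 0.30 and 0.19, beside 3.88% and 7.07% of all genes tested against signalled and conventional cells.

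MHC class I genes, which rise as thymocytes mature, stood at 0.477 to 0.624% of UMIs in Foxp3-gated cells, 0.373 to 0.474% in conventional cells, 0.345 to 0.410% in signalled cells and 0.0756 to 0.105% in DP-gated cells. Of 8 tested against signalled cells 5 were called higher and none lower, and against conventional cells 3 of 7 were called higher and none lower. With the DP limit these were 8 of 8, with a median log2 fold change of 1.08 in place of 0.66, and 6 of 7, with a median of 0.76 in place of 0.37. H2-K1 gave 1531, 2110, 2190 and 1763 CPM in Foxp3-gated cells and 1201, 1062, 1540 and 1014 CPM in conventional cells. Reads of class I genes can be shared between near-identical copies, so values of single genes are uncertain. In cKO against control no gene of either group was called. The lymphotoxin beta gene Ltb, whose product acts on thymic stroma, gave 743, 1080, 1186 and 851 CPM in Foxp3-gated cells against 468 to 566 CPM in signalled cells, with no overlap.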
